A study of Komagataella pastoris with 60 samples.

Results

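The methylotrophic yeast *Pichia pastoris* grows on methanol, and foreign genes are often placed in it behind the promoter of the alcohol oxidase gene *AOX1*, which methanol switches on. A culture kept on methanol for days leaves exponential growth, and the mRNA of many genes shifts as it ages. Ribosomal proteins (RPs) build the large (RPL) and small (RPS) ribosomal subunits, and an mRNA can be followed in the cell as a whole or in the ribosome–nascent chain complexes (RNCs), where ribosomes are translating it. The data described here are those of the 150 genes whose mRNA rose most from 24 to 72 h in the wild type, followed in 4 RP deletion strains and in RNC-mRNA.

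The groups were the *rpl38*∆, *rpl9a*∆, *rps7*∆ and *rps25*∆ strains and the wild type (wt), at 24, 48 and 72 h. All of them were derived from strain GS115 and expressed the phytase gene (Phy) under the *AOX1* promoter, and each deletion strain had lost 1 RP gene with a resistance marker that was afterwards removed by Cre. They were grown in BMMY, a buffered medium with methanol that was fed once a day, and were sampled just before a feed. The paper reports that every strain had left exponential growth before the first sample. It also reports that growth slowed strongly in the deletion strains after 24 h but went on in wt. Equal hours therefore need not be equal stages of growth, and the part of growth in the changes was not tested. Cycloheximide was added to keep ribosomes in place, and each sample was divided, so that an mRNA library and an RNC-mRNA library come from aliquots of the same cells. There were 2 biological replicates of each strain, time and assay, 60 libraries in all. How many transformants stand behind a strain is not given in the sources used here. Since the cultures were measured in bulk, less RNA per cell and fewer cells with the RNA cannot be told apart.

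The members were found from the 6 wt mRNA libraries alone. Reads of each of the 5319 host genes were scaled to 1000000 reads on host genes per library (CPM, counts per 1000000), and 4852 genes with a mean of at least 10 CPM were ranked by the log2 of the mean CPM at 72 h over that at 24 h, with 1 CPM added to both. The 150 highest are the members. None of the following wt mRNA values is a test, since they chose the genes. The log2 ratio of the members ran from 0.95 to 5.14 with a median of 1.13, and the median of all ranked genes was 0.18. The median member had a mean of 31.2 CPM at 24 h, 54.4 CPM at 48 h and 72.0 CPM at 72 h, and for 138 of the 150 the 48 h mean lay between the others. At the lower edge, Pipas_chr4_0874, last but 1 in rank, had a mean of 72.2 CPM at 72 h and 36.8 CPM at 24 h, and Pipas_chr1-1_0500, the last, had 86.6 CPM at 72 h and 44.3 CPM at 24 h. Just outside, Pipas_chr1-1_0102, the next in rank, had 46.5 CPM at 72 h and 23.6 CPM at 24 h, and Pipas_chr1-4_0494, following it, had 448 CPM at 72 h and 232 CPM at 24 h.

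The files name genes by ID, and 0 of the 5319 IDs matched the gene table used here, so most members are described without a function. A list of 86 RP genes and a list of 55 chaperone genes could be matched by ID from the tables of the study. The members held 0 of the 83 ranked RP genes and 1 of the 55 chaperone genes. They were of ordinary length, with a median of 1218.5 bp against 1229.0 bp over the ranked genes, and of somewhat low level per length, with a median wt mRNA value of 46.1 RPKM (reads per kilobase of gene length, scaled to library depth) against 61.8 RPKM over the ranked genes. There were 38 members on Pipas_chr3, 32 on Pipas_chr4 and 25 on Pipas_chr2-1, of 1153, 907 and 801 ranked genes with these ID prefixes. The IDs of 11 pairs of members were consecutive, and in 2 of these pairs both genes changed with the same sign in all 4 deletion strains.

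The libraries held 2970406 to 15476958 host gene reads in mRNA and 1508702 to 13532265 in RNC-mRNA, and the members took 1.46% to 3.39% of the mRNA reads in the deletion strains and 1.44% to 3.67% in wt. Each deleted gene was nearly absent from its own strain, with at most 3, 10, 16 and 9 mRNA reads in *rpl38*∆, *rpl9a*∆, *rps7*∆ and *rps25*∆, while the other strains had at least 22, 165, 396 and 183 reads of these genes in turn. Some replicates stood apart. Over the members, the median absolute log2 difference between replicates was 0.46 in *rpl9a*∆ mRNA at 48 h and 0.09 to 0.17 in the other mRNA groups. In RNC-mRNA it was 0.53 in *rpl9a*∆ at 48 h, 0.55 in *rpl9a*∆ at 72 h and 0.37 in *rpl38*∆ at 72 h, and 0.15 to 0.28 in the other groups.

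The first question is whether genes that rose with time in wt also rose in strains with a changed ribosome. As a group they did not rise relative to all genes tested. In each deletion strain the members spread to both sides, with a median log2 change from 24 to 72 h of −0.04, −0.11, −0.52 and −0.28 in *rpl38*∆, *rpl9a*∆, *rps7*∆ and *rps25*∆, where all genes tested had medians of 0.03, 0.04, 0.00 and −0.01. In wt, where the rule fixed it, the median of the members was 0.98. The plot of the members by library shows this as mostly redder rows at 72 h than at 24 h in wt, and as blocks of either order in the deletion strains. The blocks follow from the sorting of the rows by their mean change over the deletion strains.

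**Figure D1:**
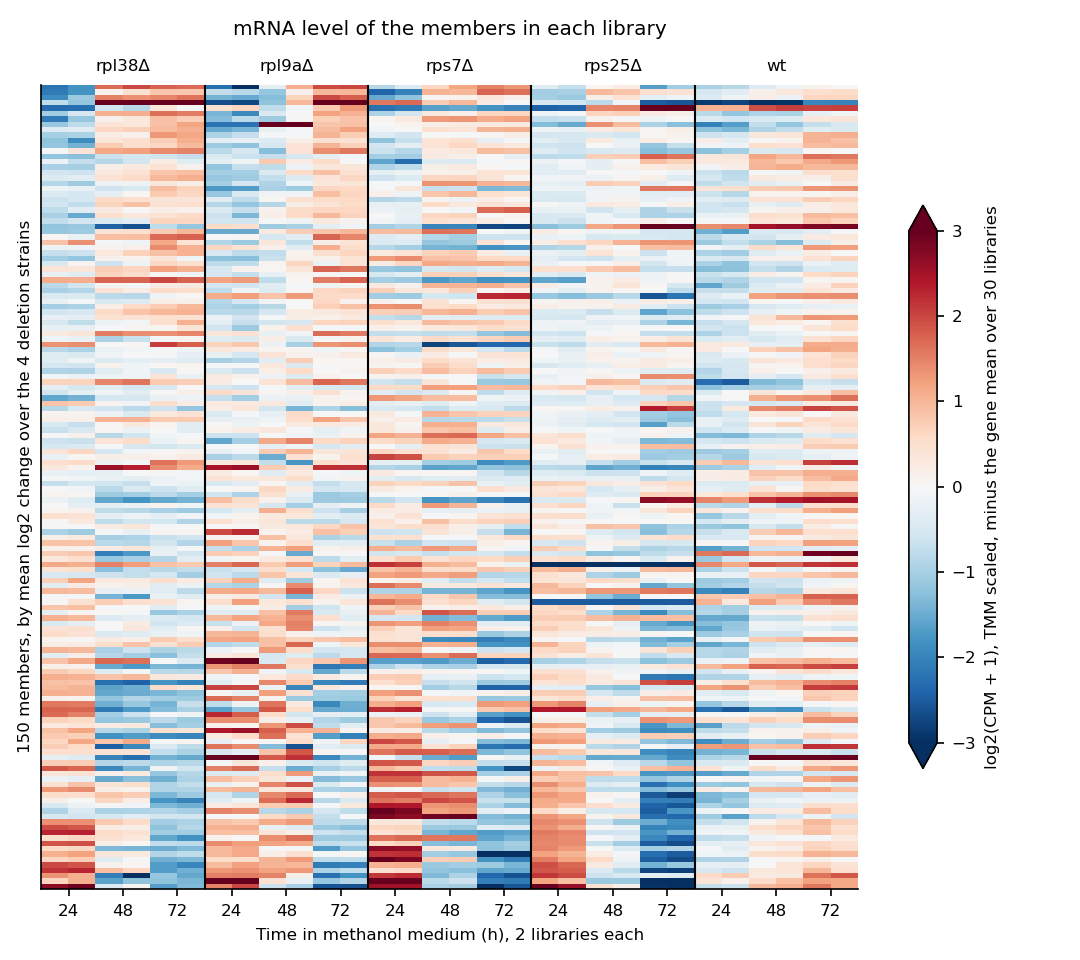
Each row is 1 of the 150 members and each column 1 mRNA library, grouped by strain and time with 2 libraries per time; colour gives log2(CPM + 1) with TMM scaling minus the mean of the gene over the 30 libraries. In wt most rows pass from bluer at 24 h to redder at 72 h, which the choice of genes fixed, whereas most of the lowest rows in *rps7*∆ and *rps25*∆ pass from red at 24 h to blue at 72 h.

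Calls were made with edgeR's quasi-likelihood test on TMM-scaled counts at a Benjamini-Hochberg adjusted p under 0.05 over all genes tested. All 150 members were among the 5228 genes tested in mRNA. In *rpl38*∆, 56 members rose and 61 fell at 72 h against 24 h, which is 37.3% and 40.7% of them, where 36.2% of all genes rose and 34.1% fell. In *rpl9a*∆, 63 rose and 59 fell (42.0% and 39.3%), where 39.2% of all genes rose and 37.3% fell. In *rps7*∆, 36 rose and 78 fell (24.0% and 52.0%), where 29.2% of all genes rose and 30.9% fell. In *rps25*∆, 30 rose and 68 fell (20.0% and 45.3%), where 22.0% of all genes rose and 21.9% fell. In both RPS deletion strains the share that rose was not above the background and the share that fell was, and both RPL deletion strains were nearer to the background.

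**Figure D2:**
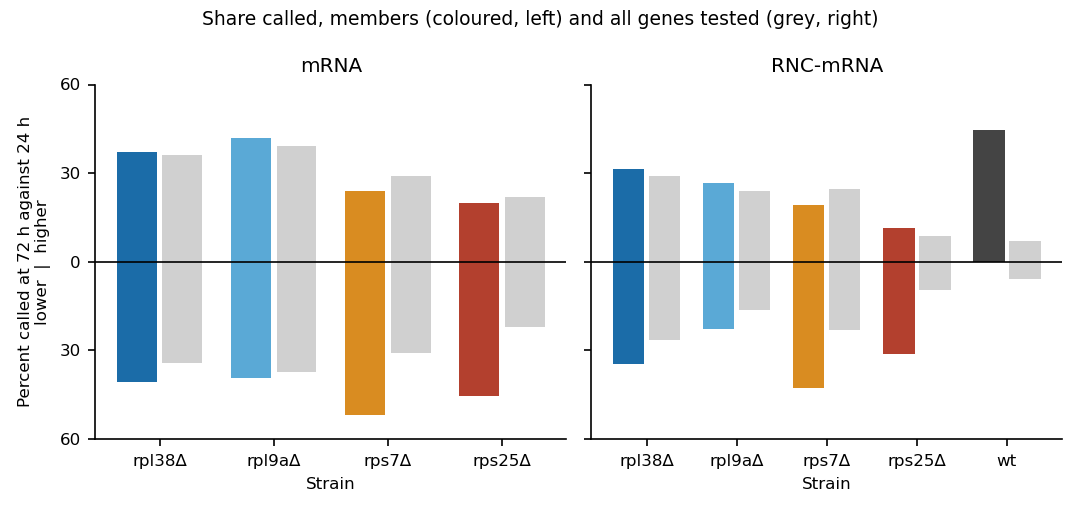
Bars give the percent of the 150 members (coloured, left) and of all genes tested (grey, right) called higher (upward) or lower (downward) at 72 h against 24 h at an adjusted p under 0.05, for mRNA and RNC-mRNA. In mRNA of *rps7*∆ and *rps25*∆ the downward bars of the members reach 52.0% and 45.3%, past 30.9% and 21.9% of all genes, and in RNC-mRNA of wt the upward bar reaches 44.7%, past 7.01%; wt mRNA is left out because it chose the members.

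The balance of rises and falls depends on the scaling. With library size alone, without TMM, the median log2 change of all genes moved to 0.41, 0.51, 0.42 and −0.05 in *rpl38*∆, *rpl9a*∆, *rps7*∆ and *rps25*∆. On that scale 71 members rose and 54 fell in *rpl38*∆, where 52.6% of all genes rose and 22.4% fell. In *rpl9a*∆ 75 rose and 41 fell, where 55.4% of all genes rose and 25.4% fell. In *rps7*∆ 55 rose and 67 fell, where 54.3% of all genes rose and 18.0% fell, and in *rps25*∆ 25 rose and 68 fell, where 19.1% of all genes rose and 23.7% fell. The median of the members on that scale was 0.34, 0.36, −0.10 and −0.32 in *rpl38*∆, *rpl9a*∆, *rps7*∆ and *rps25*∆, below the median of all genes in each strain. The share of members that fell was above that of all genes on both scales in each of the 4 deletion strains, though by little in *rpl9a*∆.

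The members were also more mobile than the average gene. A change of at least 1 on the log2 scale in either direction was found for 84 members in *rpl38*∆ (56.0%, with 31.1% of all genes), 78 in *rpl9a*∆ (52.0%, with 39.2%), 73 in *rps7*∆ (48.7%, with 20.8%) and 61 in *rps25*∆ (40.7%, with 10.7%). The interquartile range of their log2 changes was 2.13, 2.09, 1.86 and 1.73 in these strains, and 1.28, 1.57, 0.95 and 0.66 over all genes. This is a description and was not tested, since the members had been picked for a large change in wt.

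**Figure D3:**
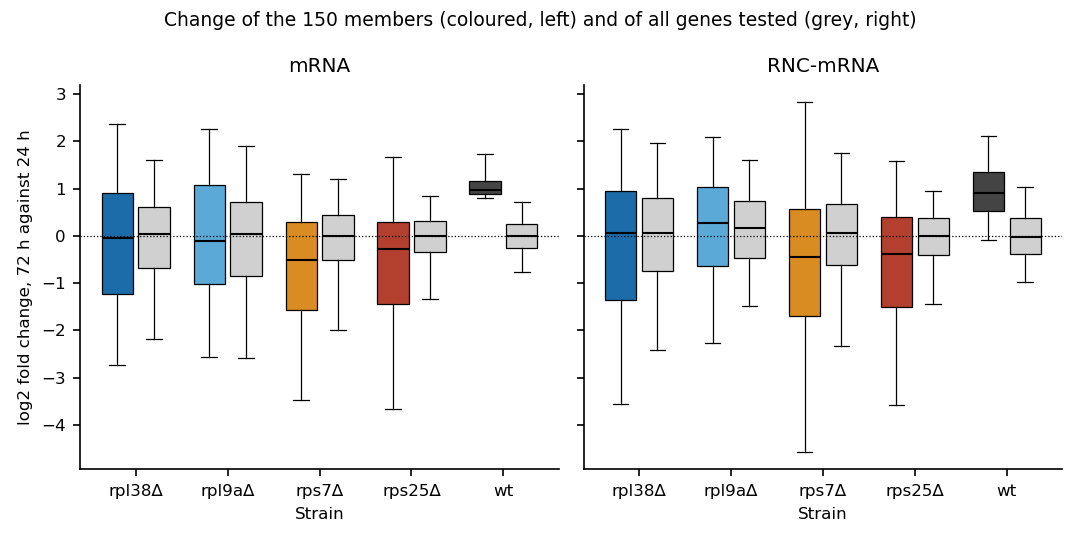
Boxes give the median and quartiles, and whiskers the 5th and 95th percentile, of the log2 fold change at 72 h against 24 h for the 150 members (coloured, left) and all genes tested (grey, right) in mRNA and RNC-mRNA. The boxes of the members are centred near 1 in wt, at 0.98 in mRNA and 0.91 in RNC-mRNA, and reach across 0 in each deletion strain, with medians of −0.52 and −0.28 for mRNA in *rps7*∆ and *rps25*∆.

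Counted over the 4 deletion strains, 9 members rose in all 4 (6.0%, with 6.24% of all genes) and 22 fell in all 4 (14.7%, with 6.83%). A further pattern was common: 50 members rose in at least 1 strain and fell in another (33.3%, with 22.0% of all genes). The other members moved in 1 direction, with 40 that rose in at least 1 strain and fell in none (26.7%, with 37.0% of all genes) and 60 that fell in at least 1 and rose in none (40.0%, with 36.0%). Every member was called in at least 1 of the 4 strains, where 4.99% of all genes tested were called in none.

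The time of the highest mean also differed by strain. In *rps25*∆ 74 members were highest at 24 h, 38 at 48 h and 38 at 72 h, and in *rps7*∆ 71 were highest at 24 h, 50 at 48 h and 29 at 72 h. In *rpl38*∆ 65 were highest at 24 h, 28 at 48 h and 57 at 72 h, and in *rpl9a*∆ 50 were highest at 24 h, 48 at 48 h and 52 at 72 h. In wt 143 of the 150 were highest at 72 h. At 72 h, 25.3% of the members were highest in *rps25*∆, 19.3% in *rps7*∆, 38.0% in *rpl38*∆ and 34.7% in *rpl9a*∆, against 33.0%, 33.6%, 35.1% and 39.9% of all genes tested. At 24 h the shares in this order were 49.3%, 47.3%, 43.3% and 33.3%, against 38.7%, 37.4%, 43.0% and 37.6% of all genes. At 48 h they were 25.3%, 33.3%, 18.7% and 32.0%, against 28.3%, 29.0%, 21.9% and 22.4%.

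The interval in which the members moved differed by strain. At 48 h against 24 h, 49 members rose and 59 fell in *rpl38*∆ (with 32.3% and 32.1% of all genes). In *rpl9a*∆ 73 rose and 41 fell (with 32.6% and 26.9% of all genes), with a median of 0.40, the only positive median among the 4 strains in this interval. The *rpl9a*∆ replicates at 48 h lay apart, and 75 members rose without the first of them and 61 without the second. In *rps7*∆ 43 rose and 57 fell (with 27.6% and 27.7% of all genes), and in *rps25*∆ 23 rose and 57 fell (with 20.0% and 22.4% of all genes). At 72 h against 48 h, 35 rose and 30 fell in *rpl38*∆ (with 13.0% and 11.6% of all genes), and 50 rose and 63 fell in *rpl9a*∆ (with 30.1% and 32.3% of all genes). In *rps7*∆ 17 rose and 69 fell (with 20.0% and 22.7% of all genes), and in *rps25*∆ 30 rose and 58 fell (with 17.9% and 16.6% of all genes). In *rps7*∆ more falls were called in the later interval, while in *rps25*∆ the numbers in both intervals were alike. Among these counts, the 35 of *rpl38*∆ became 19 without its first replicate of 48 h and 23 without its first replicate of 72 h, and the 17 of *rps7*∆ became 11 without either replicate of 48 h or without the first of 72 h.

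The deletion strains did not begin where wt began. At 24 h, both replicates were above both wt replicates of 24 h for 94, 90, 105 and 100 members in *rpl38*∆, *rpl9a*∆, *rps7*∆ and *rps25*∆, and the median log2 difference from wt at 24 h was 0.55, 0.56, 0.75 and 0.59 in these strains. At 72 h, both replicates were below both wt replicates of 72 h for 96, 90, 102 and 115 members, with median log2 differences of −0.56, −0.47, −0.76 and −0.73. The wt libraries of 24 and 72 h chose genes that were low in the first and high in the second, so these differences are a description and were not tested. Over all ranked genes the median differences lay between −0.01 and 0.04 at these points. Of the 4852 ranked genes, 1931, 1982, 2100 and 2190 were above wt in this way at 24 h and 1949, 1828, 2133 and 1996 below. At 72 h, 2122, 2102, 2126 and 1868 ranked genes were below wt and 2095, 2071, 2180 and 2055 above. Of the members, 43, 34, 30 and 37 were below wt at 24 h and 40, 43, 37 and 22 above it at 72 h.

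The wt libraries of 48 h entered the rule through the mean level, and the members were picked for their course in wt, so the calls against wt at 48 h are likewise a description. In *rpl38*∆ 45 members were higher and 59 lower than in wt (with 29.3% and 31.8% of all genes), and in *rpl9a*∆ 52 were higher and 38 lower (with 22.5% and 19.1% of all genes). In *rps7*∆ 68 were higher and 52 lower (with 34.7% and 32.2% of all genes), and in *rps25*∆ 38 were higher and 61 lower (with 25.0% and 28.2% of all genes). The medians of the members were −0.10, 0.08, 0.22 and −0.16 in this order, beside medians of −0.01, 0.05, 0.05 and −0.03 over all genes.

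Whether the strains differed from each other was tested as a difference of their changes from 24 to 72 h in 6 pairs. The RPL deletion strains stood above the RPS deletion strains for many members. The change was higher in *rpl38*∆ than in *rps7*∆ for 72 members and lower for 33 (with 25.9% and 22.2% of all genes), with a median difference of 0.62. It was higher in *rpl38*∆ than in *rps25*∆ for 76 and lower for 36 (with 29.8% and 28.8% of all genes), with a median of 0.65. For *rpl9a*∆, 74 members had a higher change than in *rps7*∆ and 24 a lower one (with 28.8% and 26.8% of all genes), with a median of 0.60, and 78 had a higher change than in *rps25*∆ and 34 a lower one (with 34.8% and 33.1% of all genes), with a median of 0.62. Within each class the median difference was nearer to 0, with members on both sides. Between *rpl38*∆ and *rpl9a*∆, 26 had a higher and 43 a lower change (with 15.3% and 16.0% of all genes), with a median of −0.15, and between *rps7*∆ and *rps25*∆ 47 had a higher and 41 a lower change (with 23.0% and 24.8% of all genes), with a median of 0.03. The balance between *rps7*∆ and *rps25*∆ was not stable: it moved in opposite directions with library size alone and with a ranking at a mean of at least 50 CPM. The median differences over all genes were between 0.00 and 0.04 in the 6 pairs. As a description across the 150 genes, which are not independent replicates, the correlation of the changes was 0.82 between *rpl38*∆ and *rpl9a*∆, 0.53 between *rps7*∆ and *rps25*∆, and 0.25 to 0.57 in the other pairs, and over all genes it was 0.85, 0.45 and 0.21 to 0.62. By this measure *rps7*∆ was no nearer to *rps25*∆ than to *rpl38*∆ (0.57, and 0.62 over all genes).

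Single members show how far the strains went apart, as the plot of time courses shows. The following values are CPM with TMM scaling, given for the 2 libraries of a time. Pipas_chr3_0517 headed the ranking in wt. In *rpl38*∆ it had 36.9 and 33.8 CPM at 24 h, 10.3 and 8.49 CPM at 48 h and 16.0 and 14.6 CPM at 72 h. In *rpl9a*∆ it had 359 and 431 CPM at 24 h, 160.1 and 208 CPM at 48 h and 10.8 and 16.1 CPM at 72 h. So it began high in *rpl9a*∆ and ended low, with a log2 change of −4.88 ± 0.21 (SE, edgeR adjusted p = 1.2e-13), and of −1.2 ± 0.23 in *rpl38*∆ (adjusted p = 9.6e-05). It had 41.7 and 27.2, 15.2 and 13.1, and 45.5 and 37.6 CPM at 24, 48 and 72 h in *rps7*∆, with a log2 change of 0.27 ± 0.19 (adjusted p = 0.24). It had 27.0 and 25.0, 14.7 and 14.9, and 14.5 and 11.5 CPM in *rps25*∆, where it fell by 1.04 ± 0.23 (adjusted p = 0.00092). The wt values were 22.4 and 24.5 CPM at 24 h, 406 and 490.3 CPM at 48 h and 842 and 686 CPM at 72 h. The wt libraries of 72 h were above all libraries of the deletion strains.

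Pipas_chr3_0982, second in the ranking, rose in wt toward levels at which several strains had begun. In *rpl38*∆ it had 963 and 933 CPM at 24 h, 415 and 431 CPM at 48 h and 387 and 281 CPM at 72 h, a log2 change of −1.5 ± 0.26 (adjusted p = 3.4e-05). In *rpl9a*∆ it had 1048 and 1087, 958 and 1677, and 746 and 309.8 CPM, a log2 change of −1.02 ± 0.26 (adjusted p = 0.0013). In *rps7*∆ it had 262 and 258, 184 and 183, and 161 and 143 CPM, a log2 change of −0.77 ± 0.26 (adjusted p = 0.015). Only *rps25*∆ had higher libraries at 72 h than at 24 h among the deletion strains, with 916 and 971, 1194 and 1200.1, and 1428 and 1486 CPM, and its change of 0.63 ± 0.26 did not pass the adjustment (adjusted p = 0.051). In wt it had 128 and 119, 272 and 259, and 592 and 623 CPM. These are mRNA values. The RNC-mRNA of this gene was not called in *rpl38*∆ (0.19 ± 0.23), *rpl9a*∆ (0.49 ± 0.23) or *rps7*∆ (−0.15 ± 0.23), with adjusted p of 0.5, 0.092 and 0.61. In *rps25*∆ it rose by 0.76 ± 0.23 (adjusted p = 0.022).

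**Figure D4:**
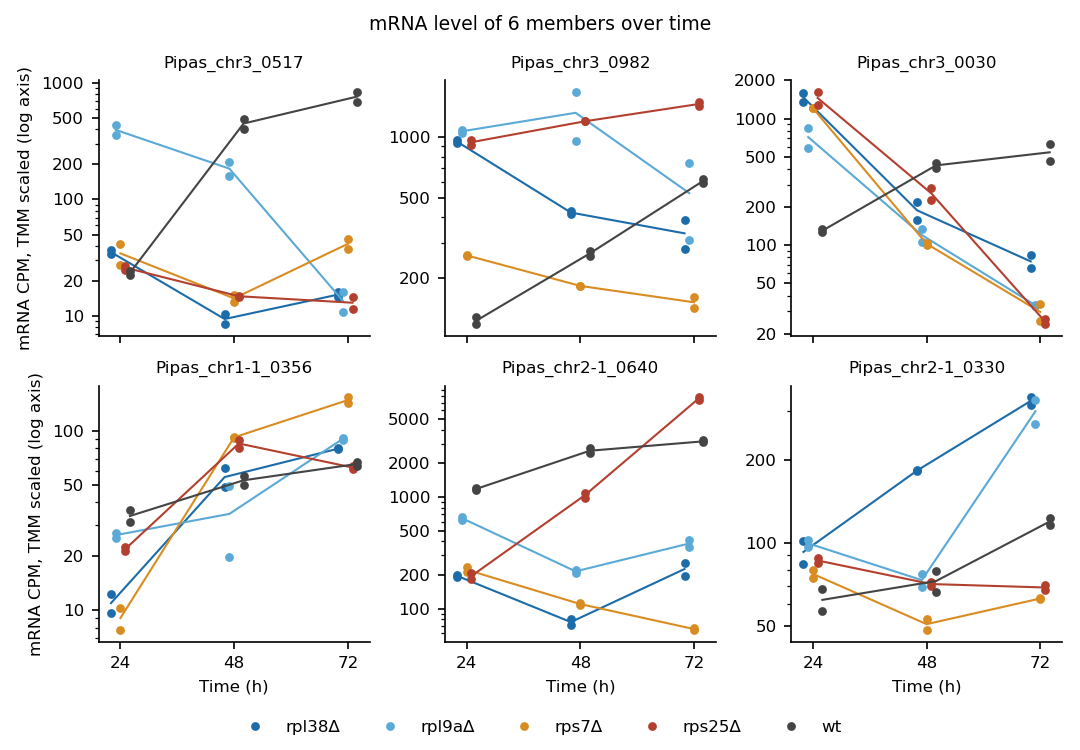
Points are the mRNA CPM (TMM scaled, log axis) of 6 members in each library at 24, 48 and 72 h, set slightly apart by strain, and lines join the means of the 2 replicates. At 72 h Pipas_chr3_0517 and Pipas_chr3_0030 are lower in the deletion strains than in wt, Pipas_chr1-1_0356 ends above its start in all 5 strains, and Pipas_chr2-1_0640 climbs from 24 to 72 h in *rps25*∆ and wt.

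Among members that fell in several strains, Pipas_chr3_0030, of rank 3 in wt, and Pipas_chr4_0151 had the lowest mean change. Pipas_chr3_0030 had 1341 and 1596 CPM at 24 h, 157 and 219.8 CPM at 48 h and 66.0 and 82.9 CPM at 72 h in *rpl38*∆. In *rpl9a*∆ it had 582 and 845, 134 and 107, and 33.9 and 33.2 CPM. In *rps7*∆ it had 1211 and 1203, 105 and 100.4, and 25.1 and 34.4 CPM. The same course was seen in *rps25*∆, with 1629.7 and 1275, 284 and 229, and 26.3 and 23.7 CPM. The wt values were 127 and 133, 409.9 and 443, and 624 and 458 CPM, so that each deletion strain started higher than wt and ended lower. The log2 change at 72 h was −4.31 ± 0.23 in *rpl38*∆ (adjusted p = 1.4e-12), −4.41 ± 0.23 in *rpl9a*∆ (7.9e-13), −5.37 ± 0.24 in *rps7*∆ (6.8e-14) and −5.87 ± 0.25 in *rps25*∆ (5.5e-14).

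Pipas_chr4_0151 took the same course from unlike starts. It had 1034 and 1054 CPM at 24 h, 126 and 78.2 CPM at 48 h and 41.0 and 48.7 CPM at 72 h in *rpl9a*∆. In *rps7*∆ it had 1092 and 938, 51.4 and 59.2, and 21.3 and 20.2 CPM. It started lower in *rpl38*∆, with 144 and 190.5, 29.3 and 38.9, and 38.8 and 34.6 CPM. In *rps25*∆ it had 207 and 171, 41.6 and 42.4, and 8.35 and 5.65 CPM, and in wt 120.0 and 100.2, 134 and 168, and 211 and 203 CPM. Its log2 change was −4.54 ± 0.21 in *rpl9a*∆ (adjusted p = 1.9e-13), −5.61 ± 0.22 in *rps7*∆ (1.2e-14), −2.18 ± 0.20 in *rpl38*∆ (7.1e-09) and −4.82 ± 0.26 in *rps25*∆ (1.9e-12).

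Of the 9 members that rose in all 4 deletion strains, Pipas_chr1-1_0356 and Pipas_chr3_1171 had the highest mean change. Pipas_chr1-1_0356 had 9.62 and 12.3 CPM at 24 h, 48.5 and 62.1 CPM at 48 h and 79.3 and 80.0 CPM at 72 h in *rpl38*∆, a log2 change of 2.87 ± 0.28 (adjusted p = 1.3e-08). In *rpl9a*∆ it had 27.1 and 25.4, 19.7 and 49.2, and 89.3 and 91.8 CPM, a log2 change of 1.78 ± 0.24 (1.1e-06), and in *rps7*∆ 7.76 and 10.3, 93.1 and 91.2, and 154 and 143 CPM, a log2 change of 4.07 ± 0.26 (2.6e-11). In *rps25*∆ it was highest at 48 h, with 21.4 and 22.5, 89.4 and 80.8, and 64.0 and 61.1 CPM, and rose by 1.51 ± 0.23 from 24 to 72 h (1.7e-05). In wt it had 31.0 and 36.0, 49.9 and 56.2, and 63.9 and 67.0 CPM, above the deletion strains at 24 h. Pipas_chr3_1171 was scarcer, at 2.58 to 5.62 CPM in the deletion strains at 24 h, against 8.93 and 11.1 CPM in wt. At 72 h it had 35.6 and 39.8 CPM in *rpl38*∆, 51.5 and 45.0 CPM in *rpl9a*∆, 15.9 and 13.7 CPM in *rps7*∆ and 9.89 and 11.3 CPM in *rps25*∆, against 19.6 and 19.4 CPM in wt. Its rise was 3.29 ± 0.43 in *rpl38*∆, 3.64 ± 0.42 in *rpl9a*∆ and 1.86 ± 0.40 in *rps7*∆ (adjusted p = 1.0e-06, 1.0e-07 and 0.00042), and 0.99 ± 0.39 in *rps25*∆ (adjusted p = 0.046), a call that did not hold when any of its 4 libraries was left out, with changes of 0.88 to 1.07.

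Pipas_chr2-1_0640 was called in all 6 pairs of deletion strains. In *rps25*∆ it had 184 and 208 CPM at 24 h, 988 and 1093 CPM at 48 h and 7818 and 7446 CPM at 72 h, a log2 change of 5.28 ± 0.14 (adjusted p = 4.8e-17). In *rps7*∆ it had 211 and 235, 108 and 111, and 66.7 and 64.4 CPM, a log2 change of −1.76 ± 0.13 (1.3e-10). These strains began together and ended apart, by −7.05 ± 0.19 for *rps7*∆ minus *rps25*∆ (adjusted p = 3.7e-17). It had 193 and 200.0, 79.9 and 71.5, and 257 and 196 CPM in *rpl38*∆, with a change of 0.21 ± 0.12 (adjusted p = 0.13). It had 665 and 627, 208 and 223, and 356 and 411 CPM in *rpl9a*∆, a log2 change of −0.75 ± 0.12 (7.9e-06). The wt values were 1164 and 1198, 2469 and 2725, and 3085 and 3222 CPM. At 48 h all deletion strains were below wt, with log2 differences from −5.10 ± 0.14 in *rpl38*∆ to −1.32 ± 0.12 in *rps25*∆. Over the 150 members, 13 were called in all 6 pairs (8.67%, with 3.12% of all genes), 52 in 5 (34.7%, with 19.4%), 32 in 4 (21.3%, with 22.3%) and 7 in none (4.67%, with 11.3%).

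The member on the chaperone list, Pipas_chr2-1_0330, rose in mRNA of the RPL deletion strains. It had 102 and 83.5 CPM at 24 h, 182 and 184 CPM at 48 h and 317 and 337 CPM at 72 h in *rpl38*∆, and 97.0 and 102, 69.3 and 77.1, and 329.8 and 271 CPM in *rpl9a*∆. The rise was 1.82 ± 0.12 in *rpl38*∆ (adjusted p = 2.8e-11) and 1.60 ± 0.12 in *rpl9a*∆ (1.0e-10), and these strains at 72 h lay above wt, which had 56.4 and 67.8, 66.1 and 79.2, and 116 and 123 CPM. In *rps7*∆ it had 74.8 and 79.5, 53.1 and 48.3, and 62.5 and 63.1 CPM, and in *rps25*∆ 84.3 and 88.2, 69.9 and 71.8, and 70.2 and 67.5 CPM. The small changes of −0.30 ± 0.12 (adjusted p = 0.034) and −0.33 ± 0.12 (0.028) in these strains lost their call when any library was left out, with values of −0.34 to −0.25 in *rps7*∆ and −0.36 to −0.29 in *rps25*∆, and that in *rps7*∆ was 0.12 with library size alone. Its mRNA change was higher in *rpl38*∆ than in *rps25*∆ by 2.15 ± 0.17 (adjusted p = 2.1e-09) and did not differ detectably between *rpl38*∆ and *rpl9a*∆ (0.22 ± 0.16, adjusted p = 0.32). The RNC-mRNA was not called in the RPL deletion strains, with changes of 0.35 ± 0.20 in *rpl38*∆ and 0.12 ± 0.20 in *rpl9a*∆ (adjusted p = 0.13 and 0.66). Relative to mRNA it changed by −1.46 ± 0.22 in *rpl38*∆ (adjusted p = 1.5e-05) and −1.51 ± 0.22 in *rpl9a*∆ (7.1e-06), in the loading fit described below.

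The RP list holds no member and the chaperone list holds 1. Of the 86 RP genes, 25 fell in *rps25*∆ at 72 h against 24 h (29.1%, with 21.9% of all genes), with a median log2 change of −0.41. In each of *rps7*∆, *rpl9a*∆ and *rpl38*∆ 85 fell (98.8%, with 30.9%, 37.3% and 34.1% of all genes), with medians of −2.61, −3.41 and −2.29. In wt 68 fell (79.1%, with 15.7% of all genes), with a median of −0.80. The same wt libraries ranked the genes, so the wt values are a description and not a test. Of the 55 chaperone genes, 9 rose and 34 fell in *rpl38*∆ (16.4% and 61.8%), 6 rose and 39 fell in *rpl9a*∆ (10.9% and 70.9%), 2 rose and 28 fell in *rps7*∆ (3.64% and 50.9%), and 18 rose and 5 fell in *rps25*∆ (32.7% and 9.09%), beside the shares of all genes given above for these strains. The RP genes are abundant, and their part in the scaling or in the changes of the members was not tested.

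RNC-mRNA had no part in the rule and was tested in wt as well, though its wt libraries came from the same cells as the mRNA that chose the members. There the members rose with the mRNA: 138 of the 150 had a positive log2 change at 72 h against 24 h, with a median of 0.91 beside −0.02 over all genes. By edgeR 67 members rose (44.7%, with 7.01% of all 5209 genes) and 0 fell (5.84% of all genes fell). At an unadjusted p under 0.05 the counts were 91 and 0, and with DESeq2 they were 78 and 0. The count of 67 became 41 without the first and 44 without the second replicate of 24 h. At 48 h against 24 h 24 rose, with 0.653% of all genes, and without 1 library 0 to 7 rose, 0 of them without the first replicate of 24 h. At 72 h against 48 h 33 rose and 8 fell, with 7.7% and 6.22% of all genes. Without 1 library 17 to 25 rose and 0 to 4 fell, with 17 rises without either replicate of 48 h and 0 falls without the second replicate of 48 h or of 72 h.

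In the deletion strains, too, RNC-mRNA of the members was called in both directions. In *rpl38*∆ 47 rose and 52 fell at 72 h against 24 h, where 29.0% of all genes rose and 26.3% fell, and without the first replicate of 72 h 29 rose. In *rpl9a*∆ 40 rose and 34 fell, where 24.0% of all genes rose and 16.2% fell, and without the first replicate of 24 h 24 rose. With each strain fitted alone, 4 rose and 10 fell in *rpl9a*∆, and 30 rose in *rps25*∆. In *rps7*∆ 29 rose and 64 fell, where 24.6% of all genes rose and 23.2% fell. In *rps25*∆ 17 rose and 47 fell, where 8.7% of all genes rose and 9.54% fell, and 7 rose without either replicate of 24 h and 9 without either of 72 h. The medians of the members were 0.07, 0.28, −0.45 and −0.39 in this order, beside 0.07, 0.16, 0.06 and 0.00 over all genes. With library size alone the medians of all genes moved to 0.52, 0.64, 0.82 and 0.13. On that scale 65 members rose and 40 fell in *rpl38*∆ (45.1% and 17% of all genes), 70 rose and 22 fell in *rpl9a*∆ (44.7% and 7.91%), 57 rose and 45 fell in *rps7*∆ (57.5% and 10.7%), and 18 rose and 45 fell in *rps25*∆ (11.6% and 7.81%). In all 4 deletion strains the share of members that fell in RNC-mRNA was above that of all genes on both scales.

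Member by member, calls in mRNA were often met by the same call in RNC-mRNA. Of the 61 members that fell in mRNA of *rpl38*∆, 49 also fell in RNC-mRNA (80.3%), where 62.7% of all genes that fell in mRNA did. In *rps7*∆ it was 60 of 78 (76.9%, with 65.5% of all genes), in *rps25*∆ 40 of 68 (58.8%, with 32.3%) and in *rpl9a*∆ 30 of 59 (50.8%, with 33.7%). Of the members that rose in mRNA, 38 of 56 in *rpl38*∆ (67.9%, with 60% of all genes), 26 of 36 in *rps7*∆ (72.2%, with 64.7%), 12 of 30 in *rps25*∆ (40.0%, with 29.7%) and 26 of 63 in *rpl9a*∆ (41.3%, with 45.3%) also rose in RNC-mRNA. Opposite calls were found for 10 members in *rpl9a*∆ (6.67%, with 3.10% of all genes), of which 8 fell in mRNA and rose in RNC-mRNA, and for 0 members in the other deletion strains (with 0.327% to 1.71% of all genes). In *rpl9a*∆ the medians also differed in sign, at −0.11 in mRNA and 0.28 in RNC-mRNA. Neither the calls nor the medians of this strain were stable, and its RNC-mRNA counts depended on the fit, as given above. Without 1 library, 24 to 44 members rose in RNC-mRNA, and the medians ran from −0.08 to 0.01 in mRNA and from 0.04 to 0.28 in RNC-mRNA. As a description across genes, the correlation of the changes in mRNA and RNC-mRNA was 0.87 in *rpl38*∆, 0.72 in *rpl9a*∆, 0.93 in *rps7*∆, 0.90 in *rps25*∆ and 0.55 in wt over the members, whose mRNA changes in wt were confined by the rule to a narrow range, and 0.82, 0.63, 0.88, 0.74 and 0.46 over all genes.

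**Figure D5:**
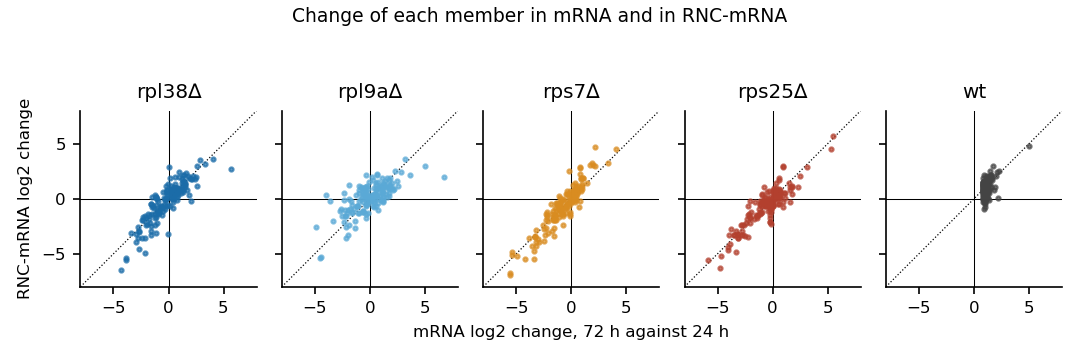
Each point is 1 of the 150 members, with its log2 change at 72 h against 24 h in mRNA (x axis) and RNC-mRNA (y axis) in each strain; the dotted line marks equal changes. The points follow the line in the deletion strains (correlation 0.72 to 0.93), and in wt, where the rule set a lower limit on the x axis, 138 of 150 are above 0 in RNC-mRNA.

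In RNC-mRNA, 3 members rose in all 4 deletion strains (2.0%, with 2.59% of all genes) and 18 fell in all 4 (12.0%, with 3.11%). The lowest mean changes belonged again to Pipas_chr4_0151 and Pipas_chr3_0030. Pipas_chr4_0151 had 1362 and 1586 CPM at 24 h, 30.3 and 40.5 CPM at 48 h and 15.2 and 11.8 CPM at 72 h in *rps7*∆, a log2 change of −6.77 ± 0.42 (adjusted p = 1.2e-10), against 119 and 124, 143 and 207, and 213 and 271 CPM in wt. Its change was −4.96 ± 0.40 in *rpl38*∆, −5.39 ± 0.39 in *rpl9a*∆ and −6.29 ± 0.45 in *rps25*∆ (adjusted p = 8.3e-09, 7.6e-09 and 1.3e-09). Pipas_chr3_0030 had 1101 and 1276, 38.1 and 39.6, and 11.6 and 15.6 CPM in *rpl38*∆, a log2 change of −6.45 ± 0.29 (3.2e-12), against 82.9 and 107, 304 and 310.3, and 451 and 564 CPM in wt, where it rose by 2.42 ± 0.24 (1.7e-06). The change was −5.29 ± 0.28 in *rpl9a*∆, −4.81 ± 0.27 in *rps7*∆ and −5.57 ± 0.28 in *rps25*∆.

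Pipas_chr3_0118, of rank 10, rose in both assays in all 4 deletion strains. Its RNC-mRNA had 23.5 and 18.9 CPM at 24 h, 55.8 and 73.3 CPM at 48 h and 93.8 and 81.8 CPM at 72 h in *rpl38*∆, and 21.2 and 29.6, 37.3 and 32.2, and 93.0 and 68.5 CPM in *rpl9a*∆. In *rps7*∆ it had 24.5 and 24.2, 36.2 and 39.1, and 41.2 and 45.7 CPM, and in *rps25*∆ 16.8 and 23.6, 46.9 and 33.9, and 71.2 and 76.6 CPM. In wt it had 27.7 and 27.9, 60.8 and 57.3, and 96.4 and 116 CPM. No library of 72 h overlapped with those of 24 h in any strain, and the rise was 2.04 ± 0.23, 1.67 ± 0.23, 0.84 ± 0.22 and 1.88 ± 0.22 in *rpl38*∆, *rpl9a*∆, *rps7*∆ and *rps25*∆ (adjusted p = 7.2e-07, 1.3e-05, 0.0035 and 2.8e-06) and 1.93 ± 0.22 in wt (1.1e-05). In mRNA its rise was 2.24 ± 0.11, 1.73 ± 0.11, 0.59 ± 0.11 and 0.58 ± 0.11 in the 4 deletion strains. The other member with a high mean rise in RNC-mRNA, Pipas_chr3_1171, was at low levels. It rose by 3.15 ± 0.80 in *rpl38*∆ (adjusted p = 0.0024) and 3.28 ± 0.90 in *rps7*∆ (0.005), with 25.3 and 21.3 CPM and 7.61 and 9.73 CPM at 72 h. The *rpl9a*∆ libraries had 32.2 and 2.61 CPM at 72 h, and its rise of 2.19 ± 0.80 (adjusted p = 0.033) became −0.56 without the first of these. The wt values were 5.80 and 5.23, 11.2 and 5.30, and 4.0 and 0.975 CPM, a change of −0.95 ± 0.86 (adjusted p = 0.51), unlike its mRNA.

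Ribosome loading, the RNC-mRNA of a gene relative to its mRNA in 1 model of all 60 libraries, shows whether the mRNA that was present was engaged by ribosomes. Averaged over the 3 times, 73 members were below an equal scaled level in both assays and 30 above in *rpl38*∆ (48.7% and 20.0%, with 38.2% and 34.9% of all 5240 genes). In *rpl9a*∆ 63 were below and 43 above (37.5% and 39.8% of all genes), in *rps7*∆ 69 and 41 (38.3% and 39.0%), and in *rps25*∆ 68 and 41 (37.8% and 38.4%). In wt 70 were below and 42 above (40.3% and 38.0% of all genes). The median loading of the members was −0.35, −0.16, −0.22 and −0.24 in the deletion strains and −0.23 in wt, beside −0.06 to 0.01 over all genes. The wt value shares its mRNA with the rule and is a description, and the strains were not tested against each other here.

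Over time, loading was called for 38 and 21 members in *rpl9a*∆ and for fewer in the other deletion strains, and 63 members were called in none of them (42.0%, with 50.1% of all genes). At 72 h against 24 h, 14 rose and 15 fell in *rpl38*∆, where 12.3% of all genes rose and 6.83% fell. In *rpl9a*∆ 38 rose and 21 fell (22.1% and 13.4% of all genes), in *rps7*∆ 9 rose and 16 fell (5.04% and 2.21%), and in *rps25*∆ 5 rose and 10 fell (1.39% and 3.21%). The medians of the members were −0.08, 0.08, 0.03 and −0.03, beside 0.04, 0.11, 0.07 and 0.01 over all genes. With each strain fitted alone the rises and falls became 2 and 2 in *rpl9a*∆, 22 and 28 in *rps7*∆ and 20 and 24 in *rps25*∆. Single libraries moved these counts too. Without 1 library they ranged from 13 to 36 falls in *rpl9a*∆, with 13 without the first RNC-mRNA replicate of 24 h and 36 without that of 72 h. In *rps7*∆ they ranged from 3 to 9 rises and from 6 to 11 falls, with 3 rises and 6 falls without the second RNC-mRNA replicate of 72 h. In *rps25*∆ they ranged from 2 to 5 rises and from 6 to 10 falls, with 2 rises and 6 falls without the second RNC-mRNA replicate of 72 h or the first of 24 h. In wt the median change was −0.12, given without a test.

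Pipas_chr1-4_0132 had the highest mean loading change among members called up in at least 2 strains other than Pipas_chr2-1_0009. In *rpl38*∆ it had 309.6 and 321 CPM in mRNA at 24 h, 173 and 164 CPM at 48 h and 150.1 and 139 CPM at 72 h, with 71.1 and 51.6, 42.8 and 48.7, and 55.2 and 75.3 CPM in RNC-mRNA, and its loading rose by 1.22 ± 0.28 (adjusted p = 0.0017). The *rpl9a*∆ libraries had 205 and 239, 622 and 417, and 190.3 and 147 CPM in mRNA and 36.9 and 33.9, 159 and 100.1, and 135 and 176 CPM in RNC-mRNA, and its loading rose by 2.5 ± 0.28 (1.4e-07). In *rps7*∆ the rise of 0.84 ± 0.27 (adjusted p = 0.049) lost its call without 7 of the 8 libraries. In *rps25*∆ the change was −0.52 ± 0.27 (adjusted p = 0.31). In wt it had 369 and 323, 412 and 429.9, and 622 and 708 CPM in mRNA and 55.8 and 61.5, 67.4 and 63.6, and 69.9 and 89.2 CPM in RNC-mRNA.

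Pipas_chr3_1155 went the other way, with a lower share in RNC-mRNA at 72 h. In *rpl38*∆ its mRNA stayed at 16.2 and 15.1, 16.4 and 18.0, and 15.5 and 15.3 CPM, while its RNC-mRNA had 16.0 and 28.8, 17.7 and 13.4, and 2.68 and 2.01 CPM, and its loading fell by 3.18 ± 0.37 (adjusted p = 3.1e-07). It fell by 1.44 ± 0.33 in *rpl9a*∆ (0.00093) and by 1.27 ± 0.32 in *rps7*∆ (0.011), the last not without the second RNC-mRNA or the first mRNA replicate of 72 h (−1.28 and −1.19). In *rps7*∆ its mRNA itself fell, with 166 and 154, 181 and 202, and 8.81 and 8.05 CPM. In *rps25*∆ its mRNA changed by −3.86 ± 0.24 (adjusted p = 2.8e-11), and its loading was not called (−0.27 ± 0.42, adjusted p = 0.82). The RNC-mRNA values of *rpl38*∆ at 72 h rest on 18 and 12 reads. The wt values were 10.5 and 6.86, 12.9 and 15.7, and 20.7 and 15.5 CPM in mRNA and 11.2 and 9.19, 24.0 and 25.5, and 17.7 and 22.4 CPM in RNC-mRNA.

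Pipas_chr2-2_0403 was the member whose mRNA changed most from 24 to 72 h in both RPL deletion strains. In *rpl38*∆ it had 40.4 and 30.5 CPM in mRNA at 24 h, 1195 and 1095 CPM at 48 h and 1545 and 2022 CPM at 72 h, a log2 change of 5.65 ± 0.47 (adjusted p = 1.3e-09). The *rpl9a*∆ libraries had 10.1 and 9.55, 29.5 and 138, and 775 and 1407 CPM, a log2 change of 6.78 ± 0.52 (2.6e-10). In *rps7*∆ it fell by 1.54 ± 0.39 (adjusted p = 0.0019) and in *rps25*∆ by 2.09 ± 0.49 (0.0016), and in wt it had 8.64 and 9.18, 6.10 and 8.20, and 17.2 and 16.5 CPM. Its RNC-mRNA followed less far, with 107 and 123, 3558 and 3263, and 1354 and 170.2 CPM in *rpl38*∆ and 28.4 and 37.0, 70.3 and 491, and 229.8 and 33.0 CPM in *rpl9a*∆. The replicates of 72 h lay far apart in both, so that the loading change of −2.92 ± 0.94 in *rpl38*∆ (adjusted p = 0.025) was lost without any 1 of 5 of its 8 libraries and ran from −5.05 to −2.10, and that of −4.78 ± 1.05 in *rpl9a*∆ (0.00058) ran from −6.80 to −3.97.

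Pipas_chr2-1_0009 was called higher in loading in *rpl9a*∆ (0.77 ± 0.31, adjusted p = 0.048) and *rps7*∆ (0.97 ± 0.30, 0.045), calls that were lost without most single libraries, with values of 0.64 to 0.91 and 0.76 to 1.14. What sets it apart is *rps25*∆, where it had 0 to 4 reads in each of the 12 libraries of both assays, while the 48 libraries of the other strains held at least 85. In mRNA it had 0.122 and 0.0736, 1.01 and 0.619, and 0 and 0.323 CPM in *rps25*∆, against 117 and 96.0, 154 and 144, and 189 and 198 CPM in wt. The genes with neighbouring IDs, looked at after this was seen, also had few reads in *rps25*∆. From Pipas_chr2-1_0004 to Pipas_chr2-1_0011, a run of 8 genes with 2 members, no gene had more than 5 reads in an *rps25*∆ library and the summed reads were at most 12, against at least 303 in each library of the other strains. Pipas_chr2-1_0004, Pipas_chr2-1_0007 and Pipas_chr2-1_0010 were scarce in the other strains too. Their medians there were 17.5, 16.0 and 13.0 reads, with lowest values of 0, 2 and 0, so their few reads in *rps25*∆ say less. Pipas_chr2-1_0014, further along, had up to 872 reads in *rps25*∆. For Pipas_chr2-1_0009 and Pipas_chr2-1_0010, the members in the run, no fold change is given in *rps25*∆. At 72 h against 24 h neither was called there in mRNA, and the place of Pipas_chr2-1_0009 among the loading changes rests on a mean that includes *rps25*∆.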

How the data were processed

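Per the labels and the study's methods, poly(A) RNA was taken from total RNA (mRNA) and from RNCs pelleted through sucrose and sequenced by Illumina, and a gene was quantified above 10 mapped reads. The submitters' processing notes name bcl2fastq 2.17. For the aligner, the counter and the build, nothing is stated in the sources used here. The deposited tables hold, for each library, a read count per gene and an RPKM made from it by the authors. Counts were tested and RPKM was used only for levels per length. The phytase table was not used, and 0 columns of per-sample values were left out.

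Members followed the rule given above. The members and gene lists were chosen with earlier results of these data known. A gene needed over 10 reads in 2 or more libraries to be tested (91 genes removed in mRNA and 110 in RNC-mRNA). edgeR 4.0.16 (R 4.3.3) was fitted by quasi-likelihood with TMM scaling and 1 mean per strain and time, over the 30 libraries of an assay, or over all 60 with an assay term for loading, and Benjamini-Hochberg adjustment ran over all genes tested. The loading fit had no term for the pair of an mRNA and an RNC-mRNA library that are aliquots of the same cells, a pairing that comes from the study's methods. The deviations of such pairs from their group means correlated at −0.225 to 0.875 (median 0.042, 4 of 15 over 0.1, highest in *rpl9a*∆ at 48 h), and a fit with the pair as a block was an alternative. Pairs of strains were tested as differences of changes. On simulated counts for *rpl38*∆ at 72 h against 24 h, 87.3% of changes of 1 on the log2 scale were recovered in mRNA over 5228 genes, 53.6% in RNC-mRNA over 5209 and 39.1% in loading over 5240. Summaries and plots used Python 3.11.15, pandas 2.3.3, numpy 2.4.6 and matplotlib 3.10.9.

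Members named with values were the 2 highest in rank, those at the edge of the rule, the 2 highest means among members called up in all 4 deletion strains and the 2 lowest among those called down in at least 2 (mRNA and RNC-mRNA), the 2 highest and 2 lowest loading changes among members called in at least 2 strains, the member called in most pairs, and the member on the chaperone list. The alternatives tried were DESeq2 1.42.0, its size factors, library size alone, other filters, a fit of each strain alone, a replicate block, other forms of the ranking, and leaving out each library. Gene IDs matched 0 entries of the reference table (ASM170810v1), so no names, positions or sequences were taken from it.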

Additional observations from a re-analysis of the deposited data

Results flagged for a closer look

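The change from 24 to 72 h differed between deletion strains for many members, and for many of all genes tested, by edgeR's quasi-likelihood test of the difference itself. It was higher in *rpl38*∆ than in *rpl9a*∆ for 26 members and lower for 43, higher than in *rps7*∆ for 72 and lower for 33, and higher than in *rps25*∆ for 76 and lower for 36. It was higher in *rpl9a*∆ than in *rps7*∆ for 74 and lower for 24, and higher than in *rps25*∆ for 78 and lower for 34. It was higher in *rps7*∆ than in *rps25*∆ for 47 and lower for 41. The shares of all genes called in each pair stand beside the same counts above. Without these shares the counts are not a result about the members.

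Each member named was singled out for the pair of strains in which its log2 changes differed most clearly. For *rpl38*∆ minus *rps25*∆ the difference was −2.13 for Pipas_chr3_0982, 1.56 for Pipas_chr3_0030, 1.66 for Pipas_chr3_0118, −1.59 for Pipas_chr1-4_0132 and 2.15 for Pipas_chr2-1_0330. For *rpl38*∆ minus *rps7*∆ it was 3.43 for Pipas_chr4_0151, 1.90 for Pipas_chr2-1_0009, 4.20 for Pipas_chr3_1155 and 1.05 for Pipas_chr1-1_0500. For *rpl9a*∆ minus *rps7*∆ it was −5.14 for Pipas_chr3_0517 and −1.03 for Pipas_chr4_0874. For *rpl9a*∆ minus *rps25*∆ it was 2.65 for Pipas_chr3_1171 and 8.87 for Pipas_chr2-2_0403, and for *rps7*∆ minus *rps25*∆ it was 2.56 for Pipas_chr1-1_0356 and −7.05 for Pipas_chr2-1_0640.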

How the results depend on the processing

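Of the 38 main counts, all stayed within 1.5 times under DESeq2 size factors, no filter, the ranking by TMM-scaled CPM and that with 5 CPM added, and so did the 30 run with DESeq2's own test. The cause of the following moves was not tested. With library size alone, rises became 55 in *rps7*∆ mRNA (54.3% of all genes) and 57 in *rps7*∆ RNC-mRNA (57.5% of all genes). In *rpl9a*∆ RNC-mRNA rises became 70 and falls 22 (44.7% and 7.91% of all genes). Loading in *rps7*∆ rose for 32 and fell for 7, and 72 members were higher in *rps7*∆ than in *rps25*∆, on a scale that moved all genes too. With a ranking at a mean of at least 50 CPM, which shares 79 members, 30 were higher and 64 lower in *rps7*∆ than in *rps25*∆, and loading rose for 24 in *rpl38*∆ and 2 in *rps25*∆. With the filter met in every library, 18 rose in *rps7*∆ RNC-mRNA. With each strain fitted alone, RNC-mRNA rose for 4 and fell for 10 in *rpl9a*∆ and rose for 30 in *rps25*∆, and loading rose and fell for 2 and 2 in *rpl9a*∆, 22 and 28 in *rps7*∆, and 20 and 24 in *rps25*∆. Counts under other settings without a share of all genes beside them, here and above, show dependence on the processing and not a result about the members.

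Leaving out 1 library gave, in RNC-mRNA, 29 to 45 rises in *rpl38*∆, 24 to 44 in *rpl9a*∆, 7 to 9 in *rps25*∆ and 41 to 55 in wt, and in loading 13 to 36 falls in *rpl9a*∆, 3 to 9 rises and 6 to 11 falls in *rps7*∆, and 2 to 5 rises and 6 to 10 falls in *rps25*∆. Values that changed sign were those of Pipas_chr2-1_0330 in *rps7*∆ mRNA (0.12 with library size alone), Pipas_chr3_1171 in *rpl9a*∆ RNC-mRNA (−0.56 without the first replicate of 72 h, up to 3.05 without the second), Pipas_chr2-1_0009 loading in *rpl38*∆ (−0.10 without the second RNC-mRNA replicate of 72 h, up to 0.57 without the first), and Pipas_chr2-2_0403 loading in *rps7*∆ (0.07 with library size alone) and *rps25*∆ (0.06 with library size alone, 0.02 without the first RNC-mRNA replicate of 24 h and 0.20 without the second of 72 h, down to −0.53 without the first of 72 h).

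By replicate number, the deviations at the times of a strain were mostly not positively related: of 15 correlations each, 1 was over 0.1 in mRNA and 1 in RNC-mRNA. This cannot tell whether the times share a culture, since aliquots of the same cells had a median of only 0.042 by this measure. The correlations between times ran from −0.114 to 0.139 in mRNA and from −0.745 to 0.117 in RNC-mRNA. The lowest was between 48 and 72 h in *rpl9a*∆, where the replicate deviations were thus related, with opposite sign. For loading, libraries of equal number are taken as aliquots of the same cells, and the replicate block for it was this pair. With a replicate block all 38 main counts stayed within 1.5 times (34 rises and 80 falls in *rps7*∆ mRNA), and 2 calls of Pipas_chr3_1171 were lost, at 0.98 in *rps25*∆ mRNA and 1.90 in *rpl9a*∆ RNC-mRNA. In wt RNC-mRNA the block left 6 rises at 48 h and 3 falls from 48 to 72 h. With 2 replicates per group, small changes in RNC-mRNA and loading were often not detectable at this depth.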
